A study of Homo sapiens with 9 samples.

Results

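The Notch receptors NOTCH1, NOTCH2 and NOTCH3, the Jagged ligands JAG1 and JAG2, and the target genes HES1, HEY1 and HEYL were followed in RNA-seq of LX-2 cells. The 8 genes were picked by symbol among the 20777 genes of the counts table, and all 8 were present and passed the filter on low counts. LX-2 cells derive from human hepatic stellate cells, the pericytes that lay down scar matrix in the injured liver, and grow as an immortalised line. Their genotype is labelled wide type, and the sequencing was done to learn how uridine acts on stellate cells activated by TGF-β. Libraries came from 3 groups of 3: a control group with no treatment in its labels, a TGF-β group labelled day 1, and a TGF-β + uridine group labelled with both agents and day 1. By the methods, TGF-β came first and was then exchanged for medium with uridine. A group with uridine alone was not analysed here, all libraries come from 1 cell line, and nothing in the labels says that the 3 libraries of a group came from separate cultures, so p-values measure the spread between these libraries, which may be technical.

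Notch signalling passes between touching cells. A Jagged or Delta ligand on one cell binds a Notch receptor on its neighbour, the receptor is cut by an ADAM protease and then by γ-secretase, and the freed intracellular domain enters the nucleus and turns the DNA-binding protein RBPJ from a repressor into an activator. Several HES and HEY genes, which encode basic helix-loop-helix repressors, are the classical targets. In the liver the pathway is best known for its part in bile duct formation, where JAG1 and NOTCH2 are the central pair, and JAG1 is a known TGF-β-responsive gene in several cell types.

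Total counts ranged from 40539751 to 41467124 per library. Control replicate 1 stood apart from the other libraries, with the steepest rise of log2 CPM (counts scaled to the TMM-normalized library size) with the GC content of genes. That slope was 13.8 per unit of GC fraction in control replicate 1, 4.08 and 7.44 in the other control libraries, 7.85 to 8.72 with TGF-β and 5.49 to 10.5 with TGF-β + uridine. Of 12 stellate cell and fibroblast markers, 11 were listed and 7 had a mean of at least 1 CPM, with a summed level of 1283 to 1567 CPM in the control group, 2268 to 2362 CPM in the TGF-β group and 1916 to 2242 CPM in the TGF-β + uridine group. Against the label, COL1A2 had at most 1 read in any library. Epithelial markers were abundant, with a summed level of 1371 to 2608 CPM in the control group, 3023 to 3159 CPM in the TGF-β group and 2053 to 2790 CPM in the TGF-β + uridine group over 5 listed genes, nearly all of it from the keratin gene KRT7, while EPCAM had at most 5 reads. The macrophage list summed to 34.6 to 48.2 CPM, 74.96 to 84.0 CPM and 62.4 to 77.9 CPM in the same order, from CD68 and CSF1R. The part of these lists in the results on Notch genes was not tested. Endothelial markers, from the cells in which NOTCH4 and DLL4 are best known, summed to at most 3.16 CPM in any library, and hepatocyte markers to at most 2.46 CPM.

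The members covered a wide range of levels. Per gene length, as FPKM (reads scaled to gene length and to the library total), NOTCH2 was highest in every group, with 8.0 to 17.8 FPKM in the control group, 14.8 to 15.8 FPKM in the TGF-β group and 13.6 to 17.6 FPKM in the TGF-β + uridine group. HEY1 and NOTCH1 came next. Their ranges overlapped in the control group (4.56 to 7.53 FPKM for HEY1 and 4.20 to 6.37 FPKM for NOTCH1) and in the TGF-β + uridine group, whereas in the TGF-β group HEY1 (6.03 to 6.71 FPKM) lay above NOTCH1 (3.99 to 4.68 FPKM). By its mean JAG1 followed in each group, though in the control group its range (0.282 to 0.801 FPKM) overlapped that of HES1 (0.262 to 0.416 FPKM). JAG1 there also overlapped JAG2 (0.185 to 0.295 FPKM). The 4 other genes were all below 0.5 FPKM, with medians over the 9 libraries of 0.262 FPKM for HES1, 0.257 FPKM for JAG2, 0.0764 FPKM for HEYL and 0.0278 FPKM for NOTCH3. HES1 and JAG2 overlapped in every group, and HEYL and NOTCH3 overlapped in both treated groups. The classical target HES1 thus had 7 to 27 reads per library, against 413 to 770 reads for HEY1.

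**Figure D1:**
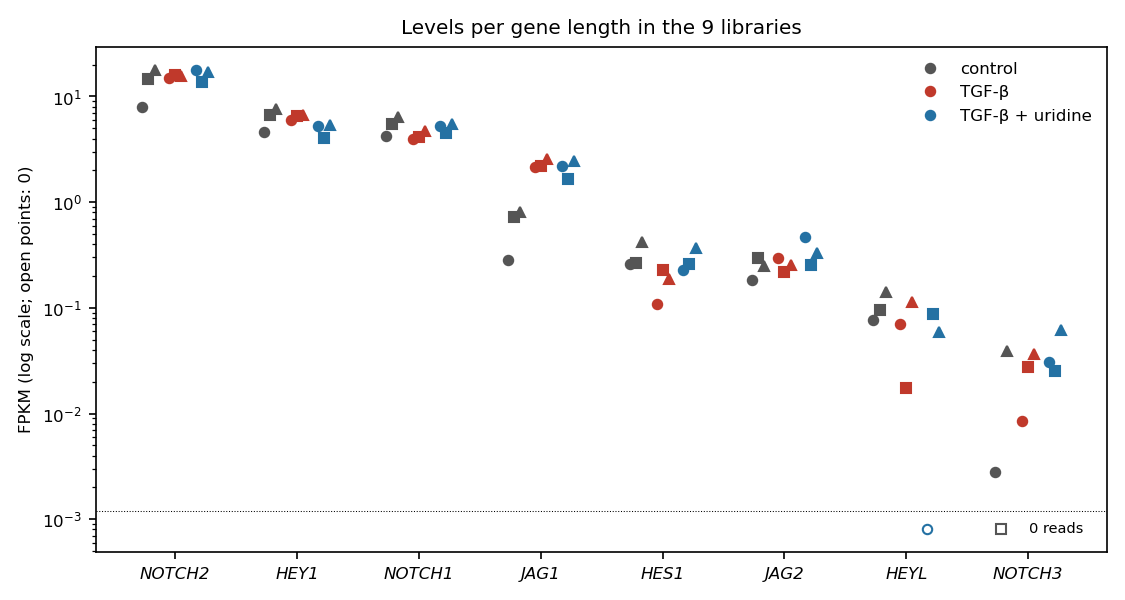
FPKM of each member (log axis) in the 9 libraries, coloured by group, with replicates 1, 2 and 3 as circle, square and triangle and open points for libraries with 0 reads. NOTCH2 is highest, HEY1 and NOTCH1 lie near each other, and JAG1 is the gene whose control points (0.282 to 0.801 FPKM) lie well below both treated groups.

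After TGF-β, 1 of the 8 genes rose and 0 fell at an adjusted p under 0.05 in edgeR's quasi-likelihood test, where 3.38% of all 13384 tested genes were called, 2.42% higher and 0.964% lower. With uridine added, compared with TGF-β alone, 0 of 8 were called by edgeR (1 at an unadjusted p under 0.05, HEY1, and 1 by DESeq2), where 0.0448% of all genes were called, all of them lower. Of all 13384 genes, 1177 had an unadjusted p under 0.05 in that comparison and DESeq2 called 238. Between TGF-β + uridine and control, 1 of 8 rose and 0 fell, where 5.33% were called, 2.89% higher and 2.44% lower. The gene called in both comparisons with the control group was JAG1, and these comparisons share the control libraries. In CPM the 2 groups compared did not overlap for NOTCH1, JAG1 and HES1 after TGF-β (3 of 8, and 17.7% of all tested genes), for NOTCH1 and HEY1 after uridine (2 of 8, and 25.6%) and for NOTCH1, JAG1 and HEY1 between TGF-β + uridine and control (3 of 8, and 19.7%). The median log2 fold change of the 8 genes was 0.09 after TGF-β and 0.115 after uridine, beside −0.05 and 0.02 over all tested genes. Far more genes passed with each library's GC slope, computed from these same libraries, as a covariate. That setting called 2715 of all 13384 genes after TGF-β, 2554 after uridine and 4162 between TGF-β + uridine and control.

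**Figure D2:**
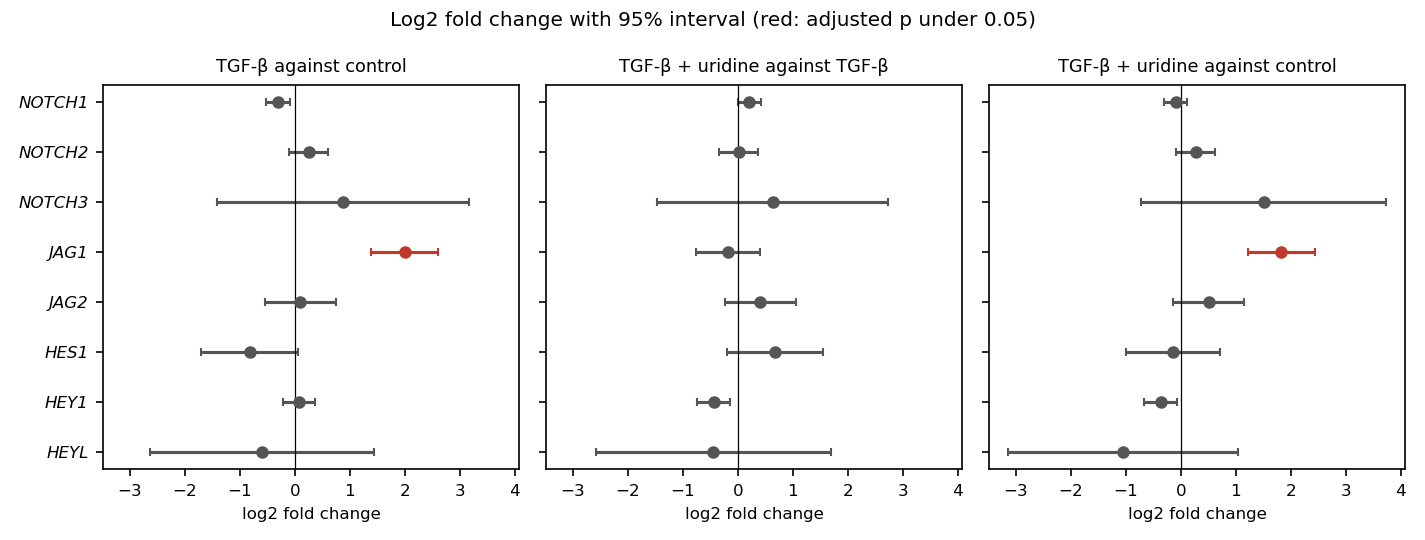
Log2 fold change of each member in the 3 comparisons with its 95% interval from the edgeR fit, red where the adjusted p was under 0.05. JAG1 is the only red gene, at 2.0 for TGF-β and 1.82 for TGF-β + uridine against control, and the intervals of NOTCH3 and HEYL span several log2 units.

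JAG1 (ENSG00000101384) encodes the ligand Jagged-1, a membrane protein that activates Notch receptors on adjacent cells, and sits at chr20:10637684-10673999 (GRCh38, minus strand). It had 69, 176 and 196 reads in the control libraries, 523, 544 and 626 in the TGF-β libraries and 543, 409 and 596 in the TGF-β + uridine libraries. As normalized CPM these were 2.04, 4.19 and 4.11 in the control group, 13.2, 13.2 and 15.2 in the TGF-β group and 12.6, 10.7 and 13.5 in the TGF-β + uridine group. Every treated library lay above every control library, and the 2 treated groups overlapped. The group means were 3.45 ± 1.22 CPM, 13.9 ± 1.20 CPM and 12.3 ± 1.42 CPM (SD, n = 3 each). JAG1 rose 4.0-fold after TGF-β, which is 2.0 on the log2 scale (SE 0.27, 95% interval 1.39 to 2.61, edgeR adjusted p = 0.00382). With TGF-β + uridine it rose 3.54-fold over control, or 1.82 on the log2 scale (SE 0.27, 95% interval 1.22 to 2.43, edgeR adjusted p = 0.00570). The log2 difference between the treated groups was −0.18 (95% interval −0.76 to 0.41, edgeR adjusted p = 0.972). The lowest control value belonged to control replicate 1, and without it the log2 fold changes against control were 1.73 (edgeR adjusted p = 1.5e-04) and 1.54 (edgeR adjusted p = 2.7e-04). A fit of only the 2 groups compared gave JAG1 an edgeR adjusted p of 0.0544 for TGF-β + uridine against control. An annotated antisense transcript, AL050403.2, overlaps JAG1 exons, and the strand setting of the counting was not given in the sources used here. In RNA of whole cultures, more cells with JAG1 RNA and more JAG1 RNA per cell cannot be told apart.

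JAG2 (ENSG00000184916), at chr14:105140981-105168824 (minus strand), encodes the second Jagged ligand. It had 44, 69 and 59 reads in the control libraries, 70, 52 and 60 after TGF-β and 112, 61 and 78 with TGF-β + uridine. In normalized counts the group means were 1.39 ± 0.218, 1.49 ± 0.253 and 1.99 ± 0.541 CPM (SD, n = 3 each). All 3 groups overlapped. The log2 fold change was 0.10 (95% interval −0.55 to 0.75) after TGF-β and 0.41 (−0.23 to 1.05) after uridine, with edgeR adjusted p-values of 0.997 and 0.800. Leaving out 1 library gave 0.17 to 0.55 after uridine. For TGF-β + uridine against control (0.51) it gave 0.27 to 0.65. Both Jagged genes were thus present, at unequal levels. Within a library JAG1 was 1.52, 2.48 and 3.23 times JAG2 in FPKM in the control group, 7.26, 10.2 and 10.1 times in the TGF-β group and 4.71, 6.52 and 7.43 times in the TGF-β + uridine group. Every treated library had a higher JAG1 to JAG2 ratio than every control library, and the ratios of the treated groups overlapped. The longest transcript of JAG1 has 49.6% GC and that of JAG2 64.0%, and the ratio was lowest in control replicate 1, the library with the steepest GC slope. TGF-β + uridine replicate 2, with the next steepest slope (10.5), had 6.52, above the 4.71 of TGF-β + uridine replicate 1 (slope 7.68). A part of GC content in this ratio was not tested. An annotated transcript on the same strand, AL512356.1, overlaps JAG2 exons and was not among the listed genes. Its part in the JAG2 counts and in this ratio was not tested.

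NOTCH1 (ENSG00000148400), at chr9:136494433-136545786 (minus strand), encodes a broadly expressed receptor. It had 49.1, 50.9 and 52.6 CPM in the control libraries, 39.3, 39.7 and 44.5 CPM in the TGF-β libraries and 48.3, 45.9 and 48.6 CPM in the TGF-β + uridine libraries. The TGF-β libraries were the lowest 3 of the 9, and no pair of groups overlapped. The log2 fold change of NOTCH1 was −0.31 after TGF-β (SE 0.09, 95% interval −0.52 to −0.09, edgeR adjusted p = 0.156) and 0.21 after uridine (SE 0.09, 95% interval −0.0023 to 0.42, edgeR adjusted p = 0.575). Neither passed the threshold, and each comparison gave the smallest exact permutation p that 3 libraries against 3 allow (two-sided p = 0.1). Without control replicate 1 the TGF-β difference was −0.34 and passed (edgeR adjusted p = 0.0397). It also passed by DESeq2 (adjusted p = 0.0135) and with each library's GC slope as a covariate (edgeR adjusted p = 0.00206), under which the uridine difference of 0.21 passed too (edgeR adjusted p = 0.0274). Both also passed with the replicate block added to that covariate (edgeR adjusted p = 0.00609 and 0.0427). The GC slope covariate alone called 2715 of all 13384 genes after TGF-β and 2554 after uridine.

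NOTCH2 (ENSG00000134250), the receptor most tied to bile duct formation, sits at chr1:119911553-120069626 (minus strand). It had 3882, 7003 and 8647 reads in the control libraries, 7171, 7728 and 7524 in the TGF-β libraries and 8602, 6619 and 8204 in the TGF-β + uridine libraries. In normalized CPM the control libraries had 115, 167 and 181, the TGF-β libraries 180, 187 and 183, and the TGF-β + uridine libraries 200.04, 173 and 185. Control replicate 1 was low and all other libraries lay close together. The log2 fold change was 0.25 after TGF-β (95% interval −0.11 to 0.61, edgeR adjusted p = 0.695) and 0.02 after uridine (−0.34 to 0.38, edgeR adjusted p = 0.999). Without control replicate 1 the TGF-β value was 0.07 (edgeR adjusted p = 0.608). With the GC slope as a covariate it was 0.26 and passed (edgeR adjusted p = 0.00764, and 0.0111 with the replicate block added). That covariate alone called 2715 of all 13384 genes in this comparison.

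Reads of NOTCH2 may be split with NOTCH2NLA, NOTCH2NLB, NOTCH2NLC and NOTCH2NLR, near-identical partial copies of its first exons on chromosome 1. NOTCH2 held 77.6% of the summed reads of these genes in control replicate 1 and 89.8% to 92.7% in the other 8 libraries. NOTCH2NLC had 150 reads in control replicate 1 and 7 to 32 reads elsewhere. With all 5 genes summed into 1, an alternative chosen after seeing the data, the log2 fold change after TGF-β was 0.19 (edgeR adjusted p = 0.676).

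NOTCH3 (ENSG00000074181), a receptor typical of vascular smooth muscle cells and pericytes, sits at chr19:15159038-15200981 (minus strand). It was near the limit of detection, with 1, 0 and 14 reads in the control libraries, 3, 10 and 13 in the TGF-β libraries and 11, 9 and 22 in the TGF-β + uridine libraries. A count of 0 allows up to 3 reads in that library, a limit that covers counting error only. The highest control library overlapped both treated groups. The log2 fold changes were 0.87 (95% interval −1.42 to 3.16) after TGF-β and 0.63 (−1.47 to 2.74) after uridine, with edgeR adjusted p-values of 0.944 and 0.973. With 1 library left out the TGF-β value ran from 0.31 (without control replicate 2) to 3.71 (without control replicate 3), and that of TGF-β + uridine against control from 0.95 to 4.34 without the same libraries. The uridine value of NOTCH3 then ran from 0.21 to 1.04.

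Within a library the ratio of NOTCH1 to NOTCH2 in FPKM was 0.525, 0.376 and 0.358 in the control group, 0.269, 0.262 and 0.299 in the TGF-β group and 0.298, 0.327 and 0.323 in the TGF-β + uridine group. Every control library was above every treated library, also when control replicate 1 is left aside. The longest transcript of NOTCH1 has 62.9% GC and that of NOTCH2 49.4%, and the ratio was highest in the library with the steepest GC slope. Control replicate 3, with the shallowest slope (4.08), had 0.358, above every TGF-β library. Whether GC content plays a part in this ratio was not tested.

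**Figure D3:**
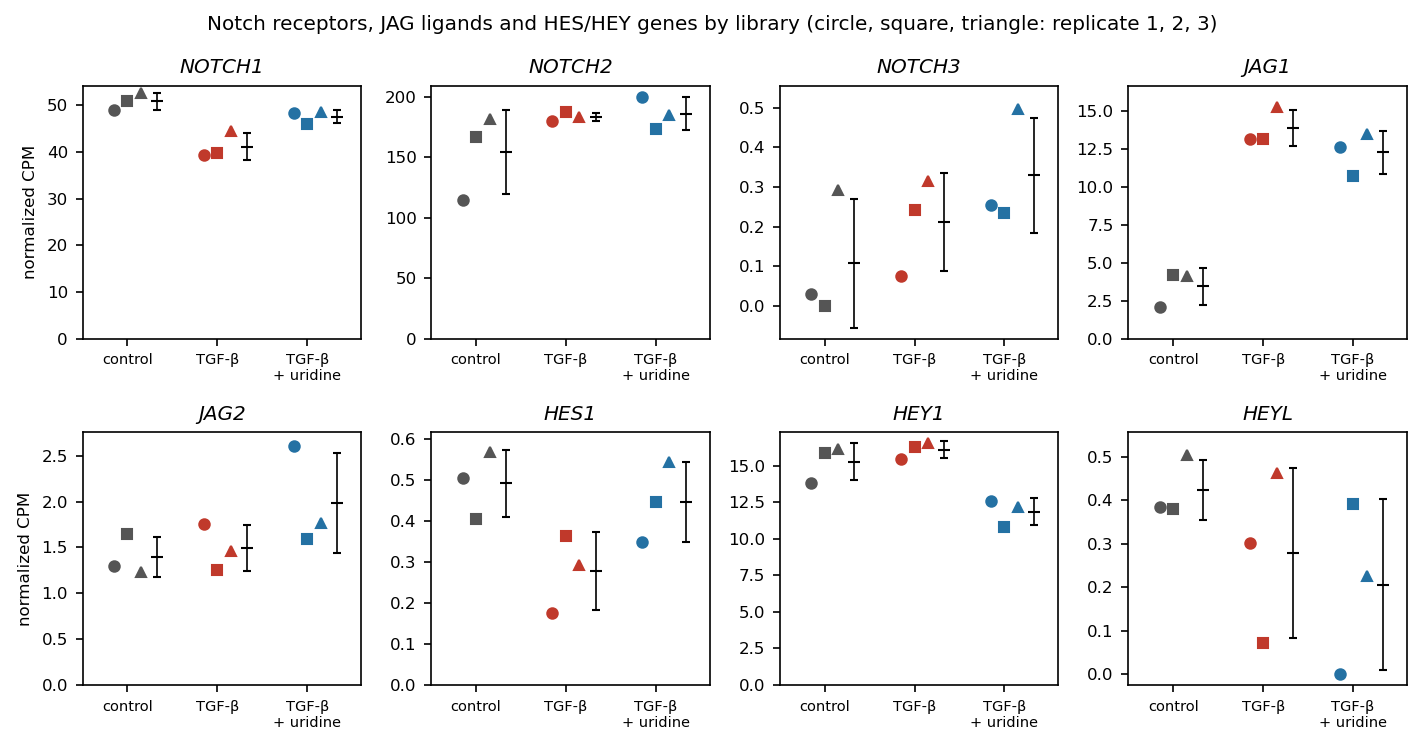
Normalized CPM of each member in each library, by group, with the group mean and SD beside the points. JAG1 stands at 2.04 to 4.19 CPM in the control libraries and at 10.7 to 15.2 CPM in the treated ones, while HEY1 is lowest in the 3 TGF-β + uridine libraries.

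HEY1 (ENSG00000164683), at chr8:79764010-79767863 (minus strand), encodes a Notch-induced repressor and was the most abundant of the 3 target genes. It had 13.8, 15.8 and 16.1 CPM in the control libraries, 15.4, 16.3 and 16.5 CPM in the TGF-β libraries and 12.6, 10.8 and 12.2 CPM in the TGF-β + uridine libraries. The control and TGF-β groups overlapped, and every TGF-β + uridine library lay below all the others. The log2 fold change of HEY1 was 0.08 after TGF-β (95% interval −0.22 to 0.37, edgeR adjusted p = 0.982). After uridine it was −0.44 (SE 0.13, 95% interval −0.74 to −0.14, unadjusted p = 0.00882), which did not pass after adjustment (edgeR adjusted p = 0.363). The exact permutation test gave its smallest possible value, a two-sided p of 0.1. With 1 library left out the uridine value stayed between −0.48 and −0.38, with edgeR adjusted p-values from 0.0623 to 0.922. It passed by DESeq2 (adjusted p = 0.0192), with the GC slope covariate (edgeR adjusted p = 0.00252), and with that covariate and the replicate number as a block (edgeR adjusted p = 0.00995). The GC slope covariate alone called 2554 of all 13384 genes after uridine and 4162 between TGF-β + uridine and control. Relative to the control group HEY1 stood at −0.36 on the log2 scale (edgeR adjusted p = 0.179), and passed by DESeq2 (adjusted p = 0.0224), with the GC slope covariate without and with the replicate block (edgeR adjusted p = 0.00375 and 0.0113) and without control replicate 1 (−0.45, edgeR adjusted p = 0.0287).

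**Figure D4:**
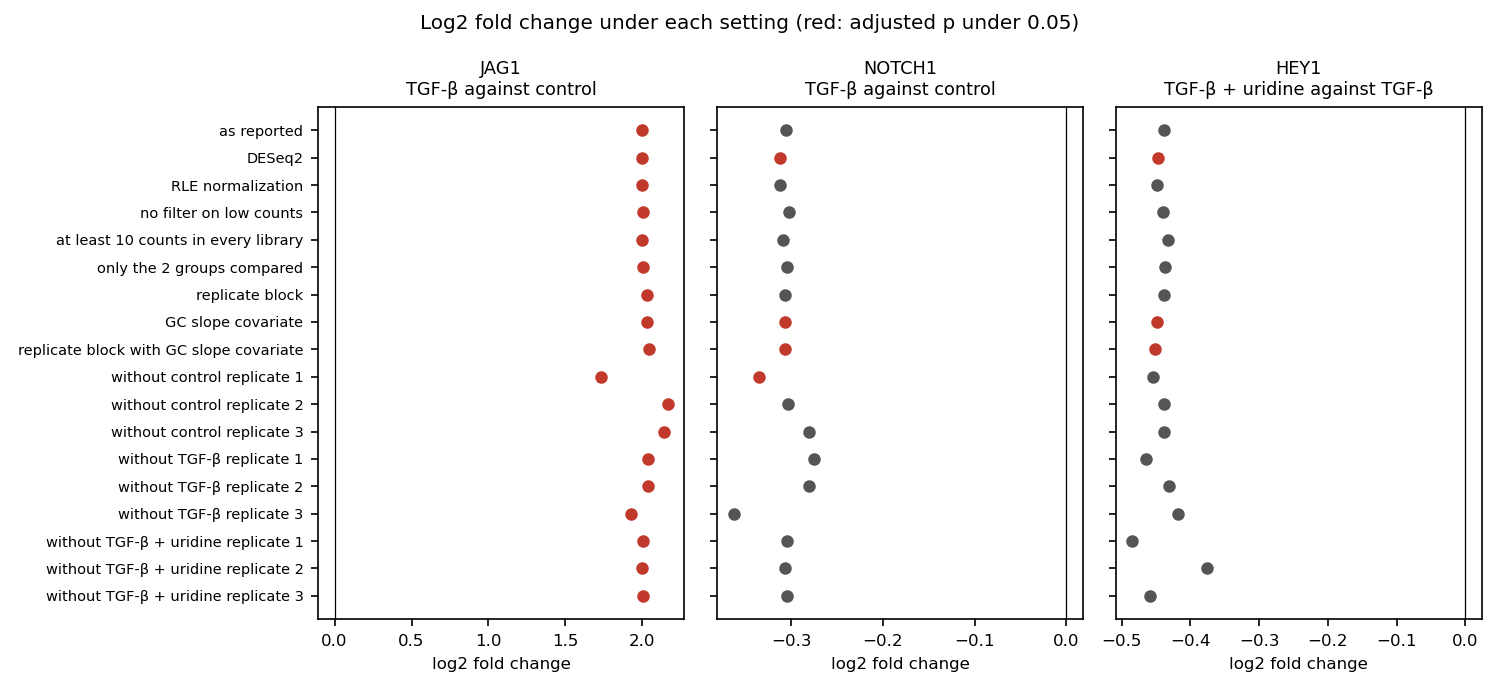
Log2 fold change of JAG1 and NOTCH1 after TGF-β and of HEY1 after uridine under each processing setting, red where the adjusted p was under 0.05. Every value of JAG1 is red and between 1.73 and 2.16, while NOTCH1 and HEY1 keep their sign in all settings shown and are red in 4 and 3 of them.

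HES1 (ENSG00000114315), at chr3:194136145-194138732 (plus strand), encodes the repressor most often read as a sign of Notch activity. It had 17, 17 and 27 reads in the control libraries, 7, 15 and 12 in the TGF-β libraries and 15, 17 and 24 in the TGF-β + uridine libraries. In normalized CPM these were 0.504, 0.405 and 0.566, then 0.176, 0.363 and 0.292, then 0.349, 0.444 and 0.542. Every TGF-β library lay below every control library, and the TGF-β + uridine group overlapped both. The log2 fold change was −0.82 after TGF-β (SE 0.39, 95% interval −1.70 to 0.06, edgeR adjusted p = 0.468) and 0.68 after uridine (SE 0.39, 95% interval −0.20 to 1.56, edgeR adjusted p = 0.717). Neither passed in any of the alternative settings in which HES1 was tested, and a minimum of 10 counts in every library left it out.

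HEYL (ENSG00000163909), at chr1:39624153-39639945 (minus strand), encodes a further HEY-type repressor. It had 13, 16 and 24 reads in the control libraries, 12, 3 and 19 in the TGF-β libraries and 0, 15 and 10 in the TGF-β + uridine libraries. All groups overlapped. The log2 fold changes were −0.60 (95% interval −2.64 to 1.44) after TGF-β and −0.45 (−2.59 to 1.69) after uridine, with edgeR adjusted p-values of 0.972 and 0.993. With 1 library left out the TGF-β value ran from −1.17 (without TGF-β replicate 3) to −0.15 (without TGF-β replicate 2), and that of TGF-β + uridine against control from −1.88 to −0.46 (without TGF-β + uridine replicates 2 and 1).

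The balance between HEY1 and HES1 was also compared within each library. HEY1 was 17.4, 24.8 and 18.1 times HES1 in FPKM in the control libraries, 55.7, 28.4 and 35.9 times after TGF-β and 22.9, 15.4 and 14.3 times with TGF-β + uridine. The TGF-β libraries had the highest ratios, above all the others, and the control and TGF-β + uridine groups overlapped. In the exact permutation test the two-sided p was 0.1, its smallest possible value, for TGF-β against either other group. It was 0.5 for TGF-β + uridine against control. The ratio rests on 7 to 27 reads of HES1.

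Between TGF-β + uridine and control, 7 of the 8 genes were not called by edgeR in the model of condition alone. Among the receptors NOTCH1 had a log2 difference of −0.10 (95% interval −0.31 to 0.12), NOTCH2 0.27 (−0.09 to 0.63) and NOTCH3 1.51 (−0.72 to 3.73). JAG2 had 0.51 (−0.13 to 1.15). Among the targets HES1 had −0.14 (−0.99 to 0.71) and HEYL −1.05 (−3.14 to 1.04). The intervals of these 6 genes all include no difference, and that of HEY1 was −0.66 to −0.07. With the GC slope covariate NOTCH2 passed in this comparison (0.26, edgeR adjusted p = 0.00511), also with the replicate block added (0.25, edgeR adjusted p = 0.00883). It did not pass with any 1 of the 9 libraries left out, its value running from 0.08 without control replicate 1 (edgeR adjusted p = 0.554) to 0.40 without control replicate 3 (0.182). Here the GC slope covariate alone called 4162 of all 13384 genes.

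The promoters of JAG1, the gene that rose, and of HES1, a classical target that was not called, are shown because RBPJ reads Notch activity from such sequence. The RefSeq promoters on GRCh38.p14 held 7 of the 8 members. HEY1 had no entry, so its promoter was not searched. For the 7 members, the 250 bases before the start were searched on both strands. The motifs were the RBPJ core TGGGAA, the SMAD box CAGAC and the HES/HEY N-box CACNAG. The lines give JAG1 at chr20:10674000-10674249 on the minus strand and HES1 at chr3:194135898-194136147 on the plus strand, 5′ to 3′, with matches to the RBPJ core in capitals.
JAG1: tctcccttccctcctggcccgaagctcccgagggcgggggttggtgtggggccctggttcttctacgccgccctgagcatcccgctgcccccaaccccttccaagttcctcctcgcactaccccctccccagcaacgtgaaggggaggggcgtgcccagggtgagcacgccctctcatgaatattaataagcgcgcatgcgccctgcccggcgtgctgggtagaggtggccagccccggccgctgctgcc
HES1: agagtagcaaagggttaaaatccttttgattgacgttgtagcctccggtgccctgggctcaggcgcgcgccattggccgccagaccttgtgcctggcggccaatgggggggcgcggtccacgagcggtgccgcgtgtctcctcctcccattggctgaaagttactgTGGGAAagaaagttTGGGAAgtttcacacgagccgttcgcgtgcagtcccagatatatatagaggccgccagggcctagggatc

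HES1 held 2 RBPJ cores, beginning at −84 and −70 relative to the start, and HEYL held 2, at −178 and −99. No RBPJ core was found in this window of JAG1, JAG2, NOTCH1, NOTCH2 or NOTCH3. The core occurs in 20.8% of all 35116 promoter windows of that length. The N-box occurred 3 times in HES1 and 1 time in NOTCH3 (32% of all windows hold it), and CAGAC occurred 1 time, in HES1 (38% of all windows). Matches of different motifs did not overlap. The window of JAG1 held none of the 3 motifs, which says only that these letters are not in those 250 bases.

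The other genes of the pathway were taken from a list of 61 by role, of which all 61 were listed and 54 tested. After TGF-β, 1 rose and 0 fell, after uridine 0 were called by edgeR (5 of 54 at an unadjusted p under 0.05, beside 1177 of all 13384 genes, and 2 by DESeq2, beside 238), and with TGF-β + uridine against control 1 rose and 2 fell, beside the 3.38%, 0.0448% and 5.33% of all tested genes called. The median log2 fold changes were −0.11, 0.02 and −0.07 in this order, beside −0.05, 0.02 and −0.01 over all tested genes.

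FURIN, the protease that cuts Notch receptors to their mature form on the way to the surface and has many other substrates, was the gene that rose. It had 237, 186 and 177 CPM in the control libraries, 337, 326 and 325 CPM in the TGF-β libraries and 343, 358 and 315 CPM in the TGF-β + uridine libraries. The treated libraries were all above the control libraries. On the log2 scale FURIN rose by 0.72 after TGF-β (SE 0.12, edgeR adjusted p = 0.0127) and by 0.76 with TGF-β + uridine against control (SE 0.12, edgeR adjusted p = 0.00822). The TGF-β call was lost without control replicate 2 or without any 1 of the TGF-β libraries (edgeR adjusted p from 0.0646 to 0.0831), and the other call without control replicate 2 (0.0564). Both were lost when only the 2 groups compared were fitted (edgeR adjusted p = 0.0667 and 0.0599).

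PSEN2, a catalytic subunit of γ-secretase, and DTX4, a Deltex ubiquitin ligase of Notch turnover, were the genes that fell with TGF-β + uridine against control. PSEN2 had 65.2, 43.6 and 40.8 CPM in the control libraries, 37.0, 37.3 and 38.0 CPM in the TGF-β libraries and 25.3, 33.6 and 27.6 CPM in the TGF-β + uridine libraries, and fell by 0.79 on the log2 scale (SE 0.19, edgeR adjusted p = 0.0449). DTX4 had 111, 94.2 and 80.9 CPM in the control libraries, 68.1, 68.8 and 67.8 CPM in the TGF-β libraries and 65.4, 68.1 and 63.1 CPM in the TGF-β + uridine libraries, and fell by 0.54 on the log2 scale (SE 0.12, edgeR adjusted p = 0.0336). Both calls held without control replicate 1 or control replicate 3 and were lost without any 1 of the other 7 libraries, with edgeR adjusted p-values up to 0.187 for PSEN2 and 0.141 for DTX4. Both calls were also lost with only the 2 groups compared (edgeR adjusted p = 0.166 and 0.144) and with the replicate block (0.101 and 0.0668), that of PSEN2 with RLE factors (0.0543) and that of DTX4 without a filter on low counts (0.0532). For both genes every library of either treated group was below every control library. After TGF-β alone DTX4 had a log2 difference of −0.48 (edgeR adjusted p = 0.0700), which passed by DESeq2 (adjusted p = 0.0217), with the GC slope covariate without and with the replicate block (edgeR adjusted p = 1.2e-05 and 2.3e-04) and without control replicate 1 or 3 (0.0265 and 0.0162), and after uridine it had −0.06 (edgeR adjusted p = 0.992). PSEN2 had −0.41 after TGF-β (edgeR adjusted p = 0.430) and −0.38 after uridine (edgeR adjusted p = 0.633), and both passed with the GC slope covariate (edgeR adjusted p = 0.00349 and 0.00576), also with the block added (0.00504 and 0.00857). Over all 13384 genes that covariate alone called 2715 after TGF-β and 2554 after uridine. The TGF-β value of PSEN2 did not pass with any 1 of the 9 libraries left out, and was −0.18 without control replicate 1 (edgeR adjusted p = 0.354) and −0.54 without control replicate 3 (0.189). None of the 8 tested genes of the nuclear complex and its coactivators was called in any of the 3 comparisons by edgeR, with 0, 1 and 1 at an unadjusted p under 0.05 in the order above, beside 1623, 1177 and 2360 of all 13384 genes.

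**Figure D5:**
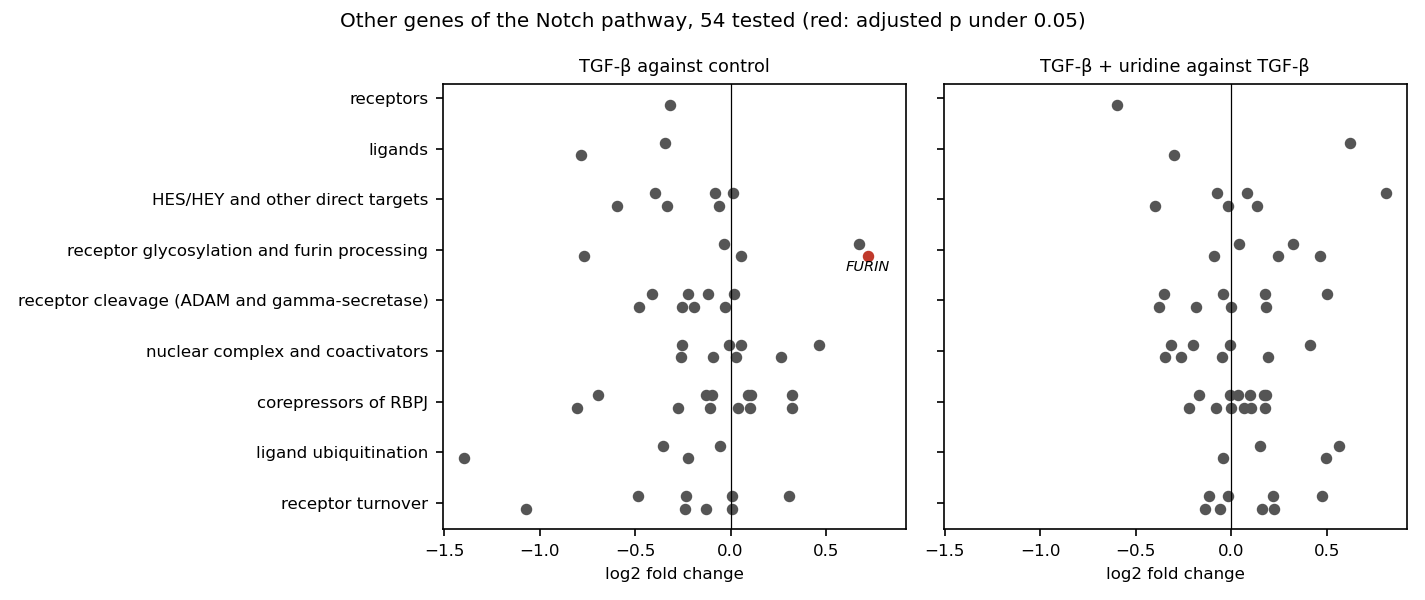
Log2 fold changes of the 54 tested genes of the pathway list by role, for TGF-β against control and TGF-β + uridine against TGF-β, red where the adjusted p was under 0.05. FURIN (0.72) is the only red point, in the TGF-β comparison.

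Other ligands and receptors were low. NOTCH4 had 5 to 24 reads per library. DLL1 had at most 2, DLL4 2 to 10 and DLK1 at most 2, and DLL3 had 32 to 95. DLK2, a non-canonical ligand relative, had 3.73, 2.91 and 3.02 CPM in the control group, 2.31, 1.84 and 1.46 CPM in the TGF-β group and 1.28, 1.96 and 1.33 CPM in the TGF-β + uridine group. Each treated library was below each control library, with log2 fold changes of −0.78 after TGF-β (edgeR adjusted p = 0.235) and −1.08 with TGF-β + uridine against control (edgeR adjusted p = 0.0629). The latter passed by DESeq2 (adjusted p = 0.00503), with the GC slope covariate without and with the replicate block (edgeR adjusted p = 0.00372 and 0.0111) and without control replicate 1 (−0.98, edgeR adjusted p = 0.0494), and the former with the GC slope covariate alone (edgeR adjusted p = 0.0318). That covariate called 2715 of all 13384 genes after TGF-β and 4162 between TGF-β + uridine and control.

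The list also grouped further HES and HEY genes with other targets, and a response of each to Notch was not tested here. Among them, HES7, which times somite formation in the embryo, had 853 to 1248 reads per library. HES4 had 149 to 270, HEY2 37 to 64 and HES5 at most 4. NRARP, a Notch-induced feedback inhibitor, had 12.4, 11.1 and 10.3 CPM in the control libraries, 7.02, 9.0 and 6.38 CPM in the TGF-β libraries and 7.42, 6.77 and 7.12 CPM in the TGF-β + uridine libraries. The treated libraries were again all below the control libraries. Against control NRARP stood at −0.59 after TGF-β (SE 0.18, edgeR adjusted p = 0.141) and at −0.67 with TGF-β + uridine (SE 0.18, edgeR adjusted p = 0.0683) on the log2 scale, and neither passed. Both passed by DESeq2 (adjusted p = 0.0204 and 0.00381), with the GC slope covariate (edgeR adjusted p = 0.00693 and 0.00241) and with that covariate and the replicate block (edgeR adjusted p = 0.0146 and 0.00631). Without control replicate 1 the latter was −0.61 and passed (edgeR adjusted p = 0.0399).

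HES2 had 12.98 to 14.5 CPM in the TGF-β + uridine libraries, below the 17.6 to 18.1 CPM of the TGF-β libraries and the 18.2 to 20.02 CPM of the control libraries. Its log2 fold change after uridine was −0.40 (edgeR adjusted p = 0.361), and it passed by DESeq2 (adjusted p = 0.0420) and with the GC slope covariate without and with the replicate block (edgeR adjusted p = 0.00341 and 0.0113). Against control HES2 stood at −0.48 with TGF-β + uridine (edgeR adjusted p = 0.0507), and passed in these 3 settings (adjusted p from 4.1e-04 to 0.00205), with at least 10 counts in every library (edgeR adjusted p = 0.0441) and without control replicate 1 (−0.45, edgeR adjusted p = 0.0199). HES6 had 53, 50 and 52 reads in the control group, 53, 66 and 39 with TGF-β and 115, 84 and 86 with TGF-β + uridine. Its log2 fold change after uridine was 0.81 (edgeR adjusted p = 0.447), and it passed with the GC slope covariate (edgeR adjusted p = 0.0444). Against control HES6 stood at 0.82 with TGF-β + uridine (edgeR adjusted p = 0.167), and passed with that covariate without and with the replicate block (edgeR adjusted p = 0.0241 and 0.0423). Across all 13384 genes the GC slope covariate called 2554 after uridine and 4162 between TGF-β + uridine and control. HEY1 and HES2 were lowest, and HES6 highest, in all 3 TGF-β + uridine libraries. Of the 6 tested genes that the list grouped as HES/HEY and other targets, 2 (HES2 and HES6) did not overlap between TGF-β and TGF-β + uridine. Over all tested genes 25.6% did not overlap. Whether HES2 and HES6 respond to Notch in these cells was not tested. HES1, HEYL, HES4, HES7, HEY2 and NRARP overlapped in that comparison.

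The genes whose levels ran most like those of JAG1 over the 9 libraries were SFRP1, a secreted Wnt antagonist (Pearson r = 0.996), and THBS1, the matrix glycoprotein thrombospondin-1 (r = 0.996), among 9988 genes that averaged 1 or more on the log2 CPM scale. These values describe libraries that share treatment and depth. SFRP1 had 18.8 to 31.1 CPM in the control group, 54.3 to 59.8 CPM in the TGF-β group and 50.3 to 55.3 CPM in the TGF-β + uridine group. THBS1 had 6.28 to 14.4, 39.3 to 47.5 and 30.4 to 44.8 CPM in the same order, and for both genes control replicate 1 was the lowest library, as for JAG1.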

How the data were processed

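LX-2 cells were sequenced in 3 groups of 3 libraries. The authors deposited counts of reads per gene symbol, not normalized, and FPKM values. Dividing counts by FPKM and library totals gave 1 fixed length per gene in all 9 libraries. The submitters' processing notes name fastp, HISAT2, HTSeq, R 3.2.0 and the build GRCh38.p13. Annotation and strand setting are not given in the sources used here.

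Under R 4.3.3, edgeR 4.0.16 (TMM factors, filterByExpr, glmQLFit and glmQLFTest) was run on the counts as 1 model of condition over all 9 libraries, two-sided, with Benjamini-Hochberg adjustment over all 13384 tested genes. CPM use TMM-scaled library sizes. The intervals of log2 fold changes cover 95%. For each member the CPM of 2 groups were set against each other in a two-sided exact permutation test, whose smallest p is 0.1. The HEY1 to HES1 ratios were tested in the same way. Promoters came from RefSeq (GRCh38.p14). Positions and GC content came from GENCODE v29 (GRCh38), matched by symbol for 92.0% of tested genes. Alternatives were DESeq2 1.42.0, RLE factors, other count filters, only the 2 groups compared, a replicate block, a GC slope covariate, and each library left out.

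Named genes were the 8 members, called genes of the pathway list, and its receptors, ligands and genes grouped as HES/HEY and other targets. The 2 tested genes most correlated with each called member were also named. The members and lists were chosen with earlier results of these data known.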

Additional observations from a re-analysis of the deposited data

How the results depend on the processing

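JAG1 kept its direction in every setting run and its call in all but the fit of only the 2 groups compared (1.82, adjusted p 0.0544). Counts of called genes are given in the order TGF-β against control, TGF-β + uridine against TGF-β and TGF-β + uridine against control. They were 453, 6 and 714 for all genes, 1, 0 and 3 for the pathway list and 1, 0 and 1 for the 8 members. With DESeq2 they were 861, 238 and 1293 for all genes, 5, 2 and 12 for the list and 2, 1 and 2 for the members. With the GC slope covariate they were 2715, 2554 and 4162, then 18, 12 and 28, then 3, 2 and 3. With only the 2 groups compared they were 229, 317 and 222, then 0, 1 and 0, with 0 members in the last comparison. With the replicate block and the GC covariate they were 2340, 2072 and 3756, then 17, 11 and 25, then 3, 2 and 3. The replicate block alone moved the counts to 0 genes after uridine and, for TGF-β + uridine against control, to 437 genes and 1 list gene, and it changed no call of a member. Replicate numbers share only a number: 2 of 9 same-numbered pairs had a correlation over 0.1 (−0.21 to 0.558) and 3 of 9 libraries correlated best with their own number. In the fit with the block and the GC covariate, NOTCH2 had −0.0066 after uridine.

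With 1 library left out, all-gene counts after TGF-β had their lowest value, 218, without TGF-β replicate 2 and their highest, 1085, without control replicate 1. In the other comparisons they ran from 0 (without control replicate 2 or any treated library) to 271 (without control replicate 1) and from 304 (without control replicate 2) to 2413 (without control replicate 1). They ranged from 0 to 8, 0 to 0 and 0 to 17 for the list, and from 1 to 2, 0 to 0 and 1 to 2 for the members, the upper values being without control replicate 1. Signs changed for JAG2 (−0.038 to 0.23) and HES6 (−0.17 to 0.19) after TGF-β, for NOTCH2 (−0.035 to 0.069), HEYL (−1.27 to 0.14), NRARP (−0.17 to 0.084) and FURIN (−0.0029 to 0.091) after uridine, and for HES1 (−0.31 to 0.0060) with TGF-β + uridine against control. The cause of these shifts was not tested. NOTCH3, HEYL and HES1 had at most 27 reads per library, and their intervals are the widest of the 8 members; what sets that width was not tested.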
